A study of Mus musculus with 35 samples.

Results

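The smooth-muscle contractile genes followed here are 10 of the 24421 genes counted in each library. They are the actins Acta2 and Actg2, the tropomyosins Tpm1 and Tpm2, the thin-filament proteins Cnn1, Cnn2 and Tagln, the myosin light chain Myl9, and the adhesion and cross-linking proteins Vcl and Actn1. They were chosen by their measured values in the Ad-Cre and Ad-GFP populations, since several were higher after Ad-Cre in every construct, so their Ad-Cre over Ad-GFP values below are a description without a test. All 10 passed the filter on low counts in both sets of libraries, where 13805 genes in the populations and 13223 in the clones were tested.

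RNA-seq was performed on immortalized mouse embryonic fibroblasts (MEFs), a line of cultured connective-tissue cells, which carried 1 floxed and 1 null allele of Nelfb (Nelfb flox/-). Nelfb encodes a subunit of the negative elongation factor NELF, which holds RNA polymerase II near gene starts. Adenovirus with Cre and GFP (Ad-Cre) removes the floxed allele, and adenovirus with GFP (Ad-GFP) was the control. The populations carried the empty pLenti vector (EV) or pLenti with WT, MT194, MT486 or DMT NELFB, and were collected 7 days after Ad-Cre or Ad-GFP, with 2 replicates in each of the 10 groups. MT194 and MT486 are alanine-substitution mutants, and what DMT stands for is not given in the sources used here. The 15 stable lines each grew from 1 cell isolated after Ad-Cre, with 3 clones per construct, and all of them are therefore Ad-Cre cells without an Ad-GFP partner. They carried WT, MT194 or MT486 in pLenti, or WT(N48) or the carboxyl-terminal truncation Δ-C60 in pBabe. What N48 stands for is not given in the sources used here either. The parental line, the immortalization and the null allele are shared by all 35 libraries. Reads on genes ranged from 17969149 to 29080007 per library in the populations (median 21617290.5) and from 18413284 to 27816723 in the clones (median 20933014).

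In smooth muscle, actin filaments lined with tropomyosin slide against myosin when its light chain is phosphorylated, while calponin and transgelin bind the actin filament and vinculin and α-actinin anchor it at the membrane. Many of these genes are switched on by serum response factor (SRF) bound to a DNA element called the CArG box, with the coactivators myocardin or the myocardin-related factors. Fibroblasts use the same set at lower levels in stress fibers, and several of its members are used as markers of myofibroblasts.

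Promoter sequence was looked up because SRF acts through a named element in it. RefSeq windows of 300 bases on GRCm38.p6, from 250 bases before to 50 after the gene start, were at hand for 8 of the 10 genes, all but Tagln and Actg2. A CArG box lay in 3 of these 8 (37.5%), those of Cnn2, Myl9 and Vcl, against 535 of all 32851 windows (1.63%), where both strands were searched. The window of Srf itself held 2. The stretches around these boxes, on the coding strand and before the RefSeq start, are shown with the box in capitals, from chr10:79988499-79988598 (plus strand) for Cnn2, chr2:156775258-156775357 (plus) for Myl9, chr14:20929148-20929225 (plus) for Vcl and chr17:46556170-46556289 (minus) for Srf.
Cnn2: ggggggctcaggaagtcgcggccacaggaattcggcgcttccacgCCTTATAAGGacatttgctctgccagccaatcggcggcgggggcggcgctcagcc
Myl9: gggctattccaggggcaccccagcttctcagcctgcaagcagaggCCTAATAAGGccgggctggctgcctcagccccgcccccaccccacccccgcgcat
Vcl: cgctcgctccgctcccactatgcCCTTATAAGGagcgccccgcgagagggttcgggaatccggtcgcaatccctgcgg
Srf: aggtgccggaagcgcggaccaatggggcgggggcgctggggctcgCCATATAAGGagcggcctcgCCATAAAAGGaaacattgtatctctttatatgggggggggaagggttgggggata
The box began 56 bases before the RefSeq start of Cnn2, 161 before that of Myl9 and 227 before that of Vcl, and Cnn2 and Vcl held the same 10 letters. The gene positions given below come from GENCODE, whose start matched that of RefSeq for Vcl and lay further upstream for the other 7. The windows thus held 206 to 250 bases before the GENCODE start for Cnn1, Cnn2, Myl9, Vcl and Actn1, but 33 for Acta2, 57 for Tpm1 and 39 for Tpm2, and the end of the Cnn2 stretch lies inside the GENCODE gene. A match is a description of the sequence and not a bound site. All boxes shown began with CC, ended with GG and held only A and T between. A stretch off this form by a letter, such as ctttatatgg in that of Srf, was not counted. For Acta2, Cnn1, Tpm1, Tpm2 and Actn1 no box lay within these windows, which says nothing of sequence outside them, and for Acta2, Tpm1 and Tpm2 most of the window lies inside the GENCODE gene.

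The deletion was checked first. Nelfb was at 46.1 and 39.6 CPM (reads of a gene scaled to a common library total after TMM normalization) in the EV populations with Ad-GFP and at 7.97 and 5.46 with Ad-Cre. In the constructs with Ad-Cre it was at 75.9 and 60.5 CPM (WT), 104 and 119 (MT194), 116 and 128 (MT486), and 169 and 208 (DMT), where reads of the construct and of the endogenous gene cannot be told apart. With Ad-GFP it was at 97.5 and 82.8 CPM in WT, 74.0 and 62.1 in MT194, 92.9 and 78.6 in MT486, and 73.5 and 61.6 in DMT. Among the 4 constructs WT thus had the lowest mean with Ad-Cre and the highest with Ad-GFP, and the part of Nelfb levels in the results below was not tested.

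The name given to the gene list was then set against defining markers. Myocd (myocardin) had no read in any of the 20 populations, Myh11, the smooth-muscle myosin heavy chain, stood at 0.0492 to 0.488 CPM, and Des (desmin) at 0 to 0.364 CPM. The fibroblast markers summed to a median of 15169 CPM over 10 Ad-Cre libraries and 16404 CPM over 10 Ad-GFP libraries, although one of them, Thy1, had at most 3 reads in any population. Of the 12 skeletal and cardiac muscle markers, Myod1 and Ckm were at 0 in every population, and the list summed to 1.40 to 6.07 CPM. The whole list of 12 other smooth-muscle genes, to which Myh11 and Des belong, summed to 1149 to 1680 CPM, most of it Cald1 (caldesmon, 824 to 1311 CPM), which non-muscle cells express too. Thus Myocd, Myh11 and Des were at or near 0, while other genes named for smooth muscle were well expressed. In bulk RNA, more cells of a kind and more RNA per cell cannot be told apart, and this holds for every level given here.

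Acta2, on chromosome 19 (GRCm38, 34241090 to 34255590, minus strand), encodes smooth-muscle α-actin. In EV populations it measured 17.8 and 15.9 CPM with Ad-GFP and 134 and 123 CPM with Ad-Cre. With WT it measured 19.9 and 17.02 CPM, then 62.0 and 64.2 CPM. The mutants reached higher levels with Ad-Cre, at 174 and 187 CPM for MT194, 128 and 224 CPM for MT486 and 180 and 215 CPM for DMT, from 13.9 to 29.6 CPM with Ad-GFP. Every Ad-Cre library thus lay above every Ad-GFP library, and the WT libraries were the lowest of the 10 with Ad-Cre. The log2 fold change of Ad-Cre over Ad-GFP was 2.93 ± 0.23 (SE, n = 2 against 2) in EV, 1.77 ± 0.22 in WT, 2.73 ± 0.23 in MT194, 3.60 ± 0.24 in MT486 and 3.44 ± 0.23 in DMT.

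Actg2 (chromosome 6, 83512905 to 83536265, minus strand), the enteric smooth-muscle γ-actin, was the scarcest member, with 11 to 112 reads per population. It stood at 0.536 to 1.99 CPM with Ad-GFP and 2.30 to 4.97 CPM with Ad-Cre. All Ad-Cre libraries again lay above all Ad-GFP libraries. Its log2 fold change was 1.68 ± 0.32 in EV, 1.86 ± 0.32 in WT, 1.31 ± 0.29 in MT194, 2.17 ± 0.31 in MT486 and 1.23 ± 0.30 in DMT, so that WT was not the lowest construct here. Actins share long stretches of coding sequence, and reads that fit several of them equally were dropped by the quality filter, which leaves the absolute levels of actins uncertain. The cytoplasmic actin Actg1 was counted at 10.4 to 31.3 CPM while Actb was at 851 to 1853 CPM. The part of dropped reads in this was not tested.

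The tropomyosins stiffen the actin filament and control access of myosin to it. Their log2 differences were among the smaller ones. Tpm1 (chromosome 9, 67022590 to 67049406, minus strand) was abundant, at 643 to 909 CPM with Ad-GFP and 946 to 1395 CPM with Ad-Cre. In EV it went from 909 and 718 CPM to 1234 and 959 CPM, and in WT from 898 and 729 CPM to 1044 and 946 CPM. Replicate 1 exceeded replicate 2 in all 10 groups, so that the gap between replicates was shared by the groups. Its log2 fold change lay between 0.29 ± 0.24 in WT and 0.71 ± 0.24 in DMT. With the replicate number added to the fit these were 0.30 ± 0.10 and 0.71 ± 0.10.

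Tpm2 (chromosome 4, 43514711 to 43523765, minus strand) had the tightest replicates of the 10 genes. EV populations held 82.9 and 84.3 CPM with Ad-GFP against 149.5 and 149.9 CPM with Ad-Cre, WT 85.6 and 75.2 CPM against 120 and 110 CPM, and MT486 83.7 and 89.1 CPM against 171 and 199 CPM. The Ad-GFP and Ad-Cre ranges over all constructs (75.2 to 96.4 and 110 to 199 CPM) did not meet. The log2 fold change ran from 0.52 ± 0.13 in WT to 1.10 ± 0.13 in MT486, with 0.84 ± 0.13 in EV.

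Of the calponins, which bind actin and restrain myosin, Cnn1 is the smooth-muscle form. Cnn1 (chromosome 9, 22099216 to 22109630, plus strand) was at 1.97 and 1.85 CPM in EV with Ad-GFP and at 11.04 and 7.53 CPM with Ad-Cre. In WT it was at 1.71 and 1.84 CPM, then 5.63 and 7.16 CPM. With Ad-Cre the mutants all exceeded EV, at 17.5 and 11.9 CPM (MT194), 15.6 and 15.9 CPM (MT486) and 15.8 and 13.8 CPM (DMT). The corresponding log2 fold changes were 2.28 ± 0.26 in EV, 1.84 ± 0.26 in WT, 2.46 ± 0.25 in MT194, 3.73 ± 0.28 in MT486 and 3.68 ± 0.27 in DMT.

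Cnn2 (chromosome 10, 79988584 to 79996062, plus strand), a calponin of non-muscle cells too, was more abundant per length (92.9 against 0.698 CPM per kb for Cnn1 in EV with Ad-GFP) and differed less between Ad-Cre and Ad-GFP. Its 10 Ad-GFP libraries held 162 to 268 CPM and its 10 Ad-Cre libraries 253 to 363 CPM. In WT the groups overlapped, with 268 and 186 CPM under Ad-GFP and 291 and 253 CPM under Ad-Cre, which was the only overlap among the 10 genes and 5 constructs. Within each replicate number the Ad-Cre value was the higher there, and replicate 1 exceeded replicate 2 in all 10 groups. Both Ad-Cre libraries lay above both Ad-GFP libraries for 24.5% of all tested genes in EV, 18.7% in WT, 16.7% in MT194, 18% in MT486 and 24% in DMT. The log2 fold change was 0.26 ± 0.25 in WT, 0.48 ± 0.25 in EV and 0.60 to 0.76 in the mutants. With the replicate number added to the fit it was 0.28 ± 0.11 in WT and 0.49 ± 0.11 in EV.

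Tagln (chromosome 9, 45929619 to 45936058, minus strand) encodes transgelin, an early marker of smooth-muscle differentiation that cross-links actin. It was at 35.2 and 24.6 CPM in EV with Ad-GFP and 148 and 132 CPM with Ad-Cre. In WT the values were 37.5 and 20.2 CPM, then 78.6 and 74.1 CPM. All 8 Ad-Cre libraries of the other constructs lay above both WT libraries with Ad-Cre, the highest at 187 CPM in MT194. The log2 fold changes were 2.22 ± 0.27 in EV, 1.41 ± 0.27 in WT, 2.22 ± 0.27 in MT194, 2.48 ± 0.28 in MT486 and 2.75 ± 0.28 in DMT.

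Myl9 (chromosome 2, 156775420 to 156781658, plus strand) is the regulatory light chain whose phosphorylation starts contraction. EV held 28.5 and 18.9 CPM with Ad-GFP and 77.6 and 56.9 CPM with Ad-Cre, WT 25.5 and 15.5 CPM and then 48.4 and 43.5 CPM, and MT486 25.7 and 17.4 CPM and then 93.1 and 91.5 CPM. WT was again below the other Ad-Cre groups. The log2 fold change was 1.51 ± 0.28 in EV, 1.17 ± 0.28 in WT, 1.64 ± 0.28 in MT194, 2.10 ± 0.29 in MT486 and 2.06 ± 0.28 in DMT.

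Vcl (chromosome 14, 20929398 to 21033676, plus strand) encodes vinculin, which ties actin to integrins at focal adhesions. It was at 456 and 505 CPM in EV with Ad-GFP and 885 and 1090 CPM with Ad-Cre, while WT stayed between 377 and 505 CPM across all 4 of its libraries. The replicates of the mutants with Ad-Cre lay far apart, at 580 and 1281 CPM for MT194, 583 and 945 CPM for MT486 and 623 and 1135 CPM for DMT. Replicate 2 exceeded replicate 1 in all 5 Ad-Cre groups. The log2 fold change was 1.04 ± 0.39 in EV, 0.24 ± 0.39 in WT, 1.31 ± 0.40 in MT194, 0.81 ± 0.39 in MT486 and 1.31 ± 0.40 in DMT.

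Actn1 (chromosome 12, 80167547 to 80260371, minus strand), the α-actinin that bundles actin at adhesions and dense bodies, was at 232 and 264 CPM in EV with Ad-GFP and 512 and 634 CPM with Ad-Cre. WT went from 223 and 207 CPM to 290 and 308 CPM. The other Ad-Cre libraries all lay above these, between 404 CPM in MT486 and 634 CPM in EV. The log2 fold change was 1.21 ± 0.19 in EV, 0.48 ± 0.19 in WT, 1.21 ± 0.19 in MT194, 1.01 ± 0.19 in MT486 and 1.38 ± 0.20 in DMT.

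**Figure D1:**
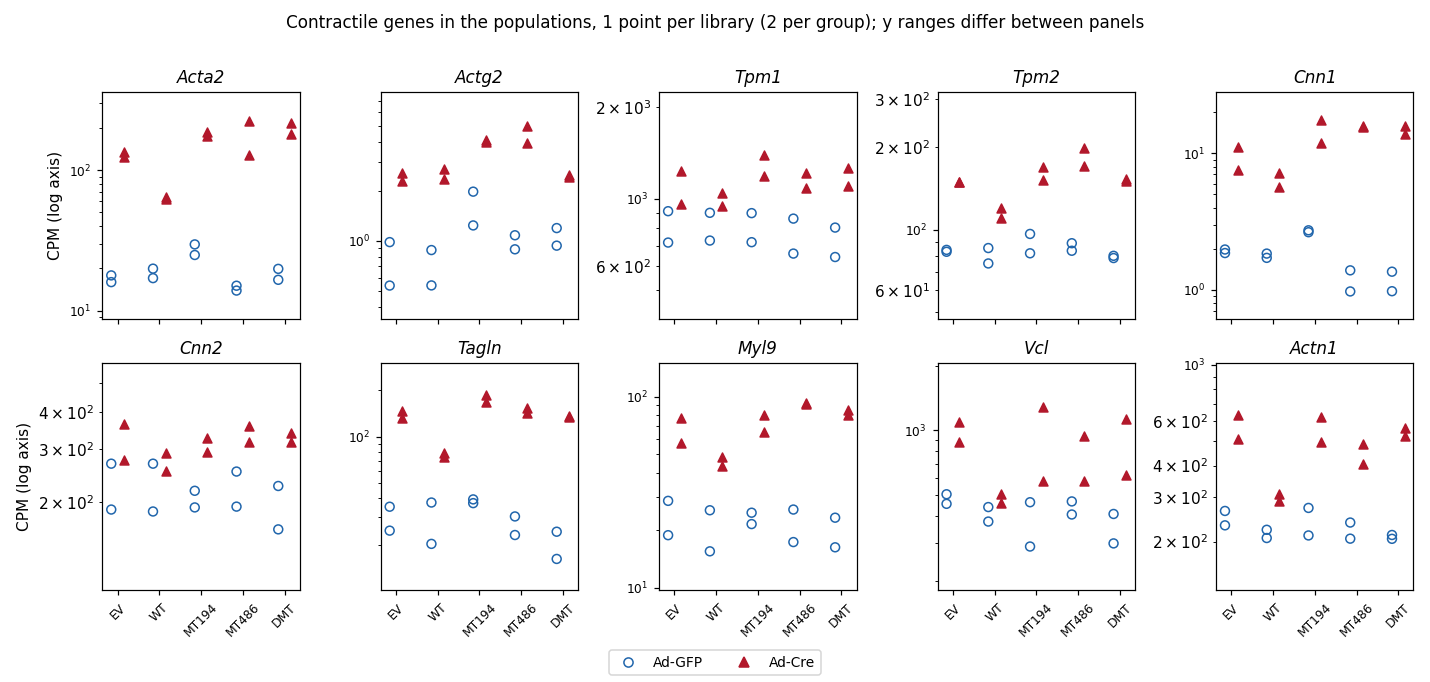
CPM (log axis) of the 10 genes in the 20 populations by construct, with 1 point per library, open circles for Ad-GFP and triangles for Ad-Cre. The 2 WT libraries with Ad-Cre are the lowest of the 10 with Ad-Cre for Acta2 (62.0 and 64.2 CPM), Tagln and Actn1, but not for Actg2.

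A log2 fold change over 0.5 was reached by 8 of the 10 genes in EV (all but Tpm1 and Cnn2), where 16.2% of all tested genes were that high. In WT it was 6 of 10 (all genes 6.87%), in MT194 all 10 (11.5%), in MT486 all 10 (10.4%) and in DMT all 10 (14.6%). Because these comparisons chose the genes, nothing is read from the counts. The median over the 10 genes was 1.36 in EV, 0.84 in WT, 1.31 in MT194, 1.597 in MT486 and 1.35 in DMT, beside a median near 0 for all tested genes (0.00036 in EV and -0.0087 in WT). Within single replicates the summed level of the 10 genes went from 2033 to 3515 CPM and from 1821 to 3431 CPM in EV, and from 2000 to 2403 CPM and from 1628 to 2314 CPM in WT.

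**Figure D2:**
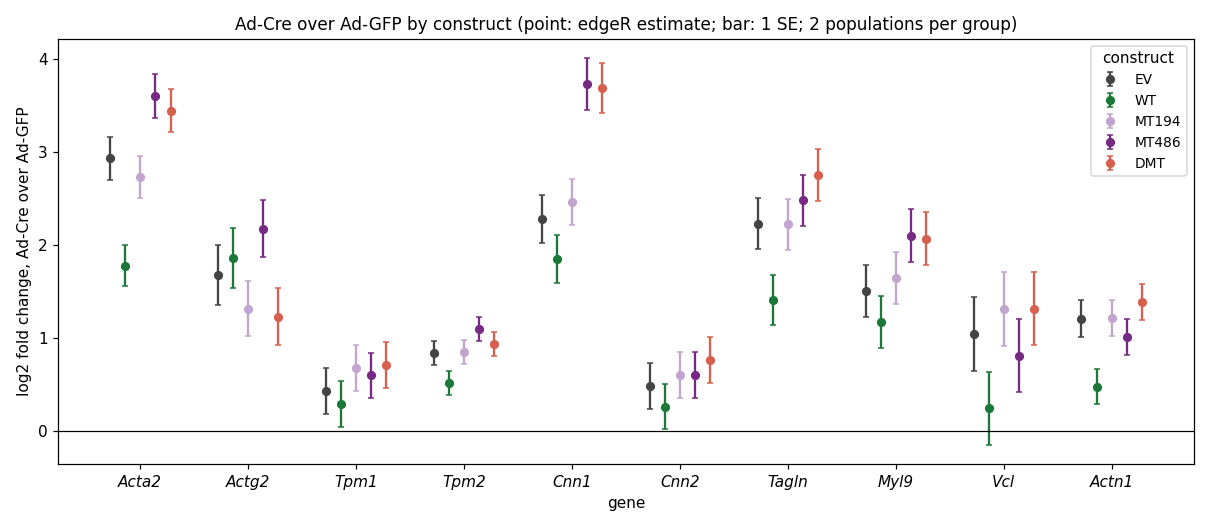
Log2 fold change of Ad-Cre over Ad-GFP for each gene (x axis) and construct (color), with bars of 1 standard error from the fit over 20 populations without the replicate number. Acta2 and Cnn1 reach 3.60 and 3.73 in MT486, and the WT points lie lowest in 9 of the 10 genes, the exception being Actg2.

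Scaled per kilobase of exon, which allows genes to be set side by side, the order in EV with Ad-GFP was Tpm1 (125 CPM per kb), Cnn2 (92.9), Vcl (58.6), Actn1 (44.9), Tpm2 (28.7), Myl9 (20.4), Tagln (15.1), Acta2 (7.68), Cnn1 (0.698) and Actg2 (0.488). With Ad-Cre it was Tpm1 (169), Cnn2 (130), Vcl (121), Actn1 (104), Tagln (70.3), Acta2 (58.5), Myl9 (57.9), Tpm2 (51.5), Cnn1 (3.39) and Actg2 (1.57). Tpm1, Cnn2, Vcl and Actn1, which non-muscle cells use widely, thus led in both conditions, and Cnn1 and Actg2 were last in both. Neighbors in the order whose replicates overlapped were Cnn2 and Vcl, Vcl and Actn1, Acta2 and Myl9, and Myl9 and Tpm2 with Ad-Cre, and Myl9 and Tagln with Ad-GFP. Paralogs among actins and tropomyosins make such levels approximate.

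The tests that follow compare constructs. In the populations they use libraries by whose values the genes were chosen, so their p-values and calls are descriptive only. The tests against EV with Ad-Cre share the EV libraries. Each of these asks whether a form of NELFB leaves the genes at another level than the empty vector does after the endogenous gene was deleted. The differences against WT further below share the WT libraries instead. WT against EV with Ad-Cre gave lower estimates for 9 of the 10 genes, with a median log2 fold change of -0.55 beside -0.016 for all genes. The quasi-likelihood test of edgeR called 2 of them, where a call means a p under 0.05 after Benjamini-Hochberg adjustment over every gene tested and a log2 difference over 0.5 in size. In this comparison 7.37% of all genes were called, and 6 of the 10 had an unadjusted p under 0.05 (all genes 23.7%). Acta2 was lower by the fitted log2 difference of -1.03 ± 0.21 (adjusted p = 0.0119) and Actn1 by -0.94 ± 0.19 (adjusted p = 0.0113). Both WT libraries lay below both EV libraries for 7 genes (27.2% of all genes), the other 3 being Cnn2, Tpm1 and Actg2. The share of reads in no gene moved with these groups, at 11.7 and 15.2% in WT against 15.5 and 18.8% in EV with Ad-Cre, and at 13.7 and 16.7% against 13.9 and 17.7% with Ad-GFP, and its part in the result was not tested.

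Since replicate numbers paired the populations, the same comparison was made with the replicate number as a block. It called 6 of the 10 genes (23% of all genes), which were Acta2 (adjusted p = 0.0013), Actn1 (4.81e-06), Tagln (-0.87 ± 0.20, 0.00395), Vcl (-1.02 ± 0.26, 0.0082), Myl9 (-0.54 ± 0.16, 0.0133) and Cnn1 (-0.53 ± 0.19, 0.032). DESeq2 without the block called Acta2, Actn1 and Tagln (adjusted p = 0.0192 for Tagln), where 10.1% of all genes were called. Leaving out any 1 of the 4 libraries left 1 library in a group, which was assumed to vary like the other groups. The edgeR call of Acta2 was then lost each time, and that of Actn1 each time except without EV replicate 1. The log2 difference stayed between -1.09 and -0.96 for Acta2 and between -1.08 and -0.78 for Actn1. With edgeR fitted to the 4 libraries alone Actn1 was not called (adjusted p = 0.1). Tpm2 differed by -0.38 ± 0.13, which is under the size required, and Actg2 by 0.07 ± 0.29.

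For the mutants with Ad-Cre, estimates against EV lay on both sides of 0. MT194 gave no call among the 10 genes by edgeR (all genes 0.225%), although 3 had an unadjusted p under 0.05 (all genes 9.61%), and DESeq2 gave none (1.45%). Cnn1 was higher by 0.66 ± 0.23 (adjusted p = 0.321), and with the replicate block it was called (0.67 ± 0.17, adjusted p = 0.0188, where 6.22% of all genes were called). MT486 likewise gave no call (all genes 0.362%), with 3 at an unadjusted p under 0.05 (all genes 12.1%) and none by DESeq2 (2.89%). The block called Cnn1 (0.77 ± 0.17, adjusted p = 0.00696) and Actg2 (0.87 ± 0.24, adjusted p = 0.0206), where 8.95% of all genes were called. DMT gave no call (all genes 0.00724%), also not with the block (0.348%) or DESeq2 (0.0257%), with 2 genes at an unadjusted p under 0.05 (all genes 3.24%). Its largest estimates were 0.67 for Cnn1 and 0.62 ± 0.21 for Acta2 (adjusted p = 1).

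**Figure D3:**
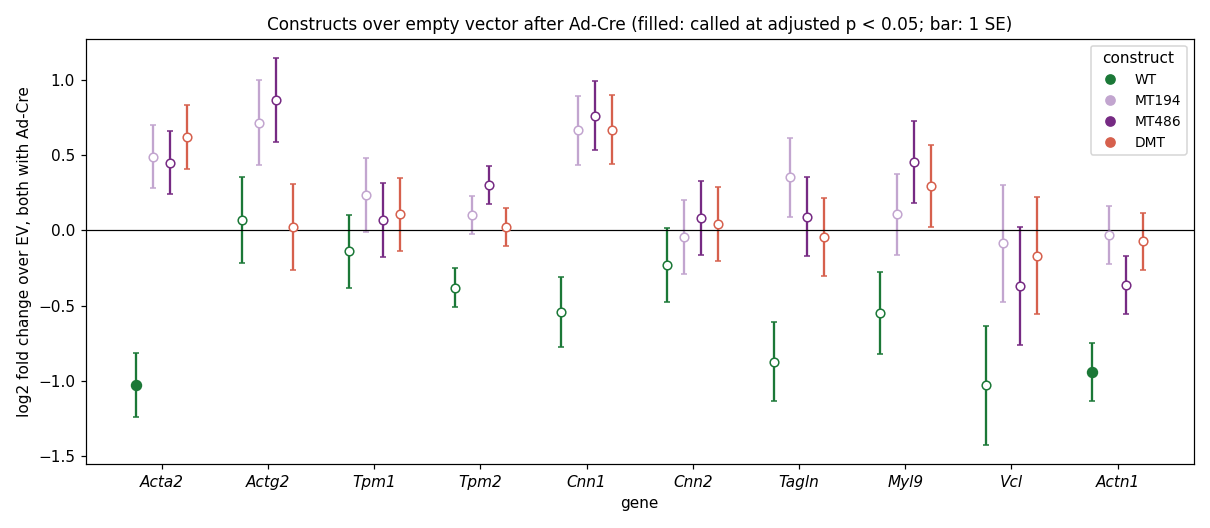
Log2 fold change of WT, MT194, MT486 and DMT over EV, all with Ad-Cre, with bars of 1 standard error and filled points for genes called by edgeR, both without the replicate block. Acta2 (-1.03) and Actn1 (-0.94) in WT are the filled points, and estimates of the mutants, of which none is filled, lie on both sides of 0, from -0.37 for Vcl to 0.86 for Actg2, both in MT486.

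With Ad-GFP, when the endogenous allele is still there, none of the 10 genes was called for any construct against EV, whether by edgeR, with the block or by DESeq2. All genes were called at 0% for WT, 0% for MT194, 0.00724% for MT486 and 0% for DMT by edgeR, and at most at 0.159% with the block and 0.0785% by DESeq2. So few calls were made over all genes that nothing is read from their absence among the 10. Unadjusted p-values under 0.05 were reached by 0 of the 10 for WT (all genes 0.608%), 2 for MT194 (2%), 1 for MT486 (1.83%) and 1 for DMT (1.27%). The largest estimates were for Actg2 in MT194, at 1.08, and for Cnn1 in DMT, at -0.73, and both genes have few reads in Ad-GFP libraries.

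The response to Ad-Cre itself was compared between constructs as a difference of the log2 fold changes. These differences are built from the values by which the genes were chosen, so their p-values and calls are descriptive only. WT minus EV was below 0 for 9 of the 10 genes, at -1.16 ± 0.30 for Acta2 (adjusted p = 0.128) and -0.73 ± 0.27 for Actn1 (adjusted p = 0.291). No gene was called by edgeR without the block (all genes 0.681%), 3 had an unadjusted p under 0.05 (all genes 11.7%), and DESeq2 called Acta2 (adjusted p = 0.0206, 2.88% of all genes). With the block Acta2 (adjusted p = 0.0197) and Actn1 (adjusted p = 0.0032) were called, where 13.4% of all genes were. Vcl, at -0.80 ± 0.55, was not called by any of the 3.

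MT194 minus EV ranged only from -0.36 to 0.27, with 0 genes called (all genes 0.00724%) and 0 at an unadjusted p under 0.05 (all genes 3.22%), by edgeR, and 0 called by DESeq2 (0.117%) or with the block (0.978%). For MT486 minus EV, Cnn1 differed by 1.45 ± 0.37 (adjusted p = 0.556). It was called with the block (1.47 ± 0.35, adjusted p = 0.0315, 2.68% of all genes), while edgeR without it (all genes 0.00724%) and DESeq2 (0.267%) called 0 of the 10, with 2 at an unadjusted p under 0.05 (all genes 5.18%). DMT minus EV gave 1.41 ± 0.37 for Cnn1 (adjusted p = 1) and no call by any of the 3 fits (all genes 0.00724% with and without the block and 0.00515% by DESeq2), with 1 gene at an unadjusted p under 0.05 (all genes 1.15%). In the Ad-GFP libraries MT486 (1.38 and 0.968 CPM) and DMT (1.35 and 0.972 CPM) lay below EV in Cnn1.

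The mutants were also set against WT, a comparison added after the data were seen. It too is built from the values by which the genes were chosen, so its p-values and calls are descriptive only. DMT minus WT was above 0 for all genes but Actg2, with a median of 0.90, and edgeR called 0 (all genes 0.138%) with Acta2 nearest at 1.67 ± 0.30 (adjusted p = 0.0615) and 6 genes at an unadjusted p under 0.05 (all genes 7.54%). The block called 5 (7.19% of all genes), Acta2, Tagln, Cnn1, Myl9 and Actn1, and DESeq2 called 4 of these, all but Myl9 (1.41% of all genes). MT486 minus WT was above 0 for all 10 genes, and edgeR called 0 (all genes 0%), with 5 at an unadjusted p under 0.05 (all genes 1.88%). For it the block called Acta2 (1.82 ± 0.30, adjusted p = 0.0386) and Cnn1 (1.90 ± 0.35, adjusted p = 0.0386), where 0.232% of all genes were called, and DESeq2 called Acta2 (0.0206% of all genes). Leaving out replicate 1 of MT486 with Ad-Cre left 1 library there, assumed to vary like the other groups, and edgeR then called Acta2 (2.18, adjusted p = 0.00844, 0.00709% of all genes). MT194 minus WT gave 0 calls by edgeR (all genes 0%) and DESeq2 (0.488%), with 3 at an unadjusted p under 0.05 (all genes 4.45%), and the block called Actn1 (0.74 ± 0.15, adjusted p = 0.0121, 2.56% of all genes).

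The 10 genes varied together over the 20 populations. Pearson correlations of log2 CPM between pairs of them ran from 0.57 to 0.98 over 45 pairs, with a median of 0.90. Acta2 had the highest median correlation with the others (0.95) and Vcl the lowest (0.74). The points share the step between 10 Ad-GFP and 10 Ad-Cre libraries that the genes were chosen by. Outside all lists, among 9374 genes of at least 10 CPM on average, those whose log2 CPM followed the mean of the 10 most closely were Nexn (r = 0.98), an actin-binding protein of muscle, Coro1c (0.98), a coronin that binds actin, Samd4 (0.98), Fam198b (0.97) and Mical2 (0.97), an actin-oxidizing enzyme. For Acta2 alone they were Samd4, Nexn, Cav1 (caveolin-1, of membrane caveolae), Fam198b and Coro1c, with r from 0.96 to 0.97. Cav1 averaged 132 CPM with Ad-GFP and 336 CPM with Ad-Cre, and Nexn 8.69 and 18.7 CPM.

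Other genes of the same apparatus did not all go the same way. Of 12 other smooth-muscle genes, 9 passed the filter in the populations, and in EV edgeR called 2 higher (Synpo2 and Csrp1) and 1 lower (Mylk) with Ad-Cre, where 11.8% of all genes were called. The median of the 9 was 0.23. Synpo2 (synaptopodin-2, an actin-bundling protein) rose by 1.46 ± 0.22 from 1.52 to 4.19 CPM (adjusted p = 0.000899), and Csrp1, a LIM protein of smooth muscle, by 1.03 ± 0.28 from 79.0 to 161 CPM (adjusted p = 0.0268). Mylk encodes the kinase that phosphorylates the myosin light chain, and it fell where its substrate Myl9 was higher. Its level was 102 and 109 CPM in EV with Ad-GFP and 20.3 and 27.6 CPM with Ad-Cre, an edgeR log2 fold change of -2.14 ± 0.38 (adjusted p = 0.00274). It fell also in MT194 (-1.63 ± 0.37, adjusted p = 0.0245), MT486 (-1.86 ± 0.37, adjusted p = 0.0201) and DMT (-2.49 ± 0.38, adjusted p = 0.00129), and in WT it was at 109 and 136 CPM, then 47.3 and 56.6 CPM. Smtn (smoothelin), Lmod1 (leiomodin) and Cald1 (caldesmon), 3 more smooth-muscle genes, were not called by edgeR in any construct. The calls in the other constructs stood beside 4.22% of all genes in MT194, 2.42% in MT486 and 9.92% in DMT.

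Of 12 genes of the SRF pathway, 11 were tested in EV, with Rock2 called higher (0.74 ± 0.12, adjusted p = 0.00139), Mkl1 called lower (-0.52 ± 0.12, adjusted p = 0.0146) and a median of 0.14. Here and for the next lists, edgeR without the block called 11.8% of all genes in EV. Mkl1 and Mkl2 are the myocardin-related coactivators and Rock2 is a kinase that favors actin assembly. Srf itself was at 75.8 and 46.7 CPM in EV with Ad-GFP and 105 and 83.1 CPM with Ad-Cre, with log2 fold changes from -0.08 in WT to 0.81 in DMT and no edgeR call in any construct without the block (DESeq2 adjusted p = 0.0394 in DMT). With the block it was called higher in EV (adjusted p = 0.0353) and DMT (adjusted p = 0.0101), where 25.4% and 23.1% of all genes were called. Of 17 focal adhesion genes, 2 were called higher in EV, Zyx (zyxin, 1.03 ± 0.25, adjusted p = 0.0178) and Pdlim7 (0.99 ± 0.12, adjusted p = 0.000227), and Tns1 (tensin-1) was called lower at -0.70 ± 0.16 (adjusted p = 0.0135). Of 13 non-muscle relatives of the 10 genes, Actn4 (0.94 ± 0.27, adjusted p = 0.0391) and Myh9 (non-muscle myosin, 0.79 ± 0.22, adjusted p = 0.0325) were called higher and none lower. With the block the counts in EV were 5 higher and 1 lower of the 13 relatives, 6 and 1 of the 17 focal adhesion genes, 2 and 2 of the SRF pathway, and again 2 and 1 of the other smooth-muscle genes. In WT, edgeR called no gene of these 4 lists (0.0217% of all genes), and with the block (3.09%) Csrp1 and Actn4 were called higher and Mylk lower, named here after their values were seen.

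Some of the closest relatives of the 10 genes in other cells are given next by name. In EV, edgeR called 11.8% of all genes, and 25.4% with the block. The cytoplasmic actin Actb, a housekeeping relative of Acta2, averaged 1129 CPM in EV with Ad-GFP and 1605 CPM with Ad-Cre, a log2 fold change of 0.51 ± 0.26 (edgeR adjusted p = 0.239, called with the block). Cnn3, the acidic calponin, was the relative of Cnn1 and Cnn2 with estimates below 0 in all 5 constructs (-0.48 in EV to -0.01 in WT) and no call. Tagln2, the non-muscle transgelin, had log2 fold changes from 0.37 in WT to 0.76 in DMT with no call, and with the block it was called in MT194, MT486 and DMT (14.5%, 12.1% and 23.1% of all genes). Mkl2 was at 58.6 and 69.4 CPM in EV with Ad-GFP and Ad-Cre on average and was not called. The striated-muscle actins Acta1 and Actc1 stayed at most at 0.71 and 0.0901 CPM in any population.

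Other genes at the ends of these lists, by the median of the 5 Ad-Cre effects, were Myl12b (-0.52) and Flna (0.93) among the relatives, Ppp1r12b (-0.17) among smooth-muscle genes and Elk1 (-0.52) in the SRF pathway. Among the fibroblast markers they were Fap (-1.37) and S100a4 (-0.84) at the low end and Dcn (0.56) and Postn (0.66) at the high end. They were also Ttn (0.51) for striated muscle, and Rgs5 (-1.80), Notch3 (-0.55) and Cspg4 (0.51) for pericytes. Cdh1 (-0.21), Tek (1.14), Cd68 (0.01) and Lyz2 (0.18) stood for epithelial, endothelial and leukocyte lists.

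**Figure D4:**
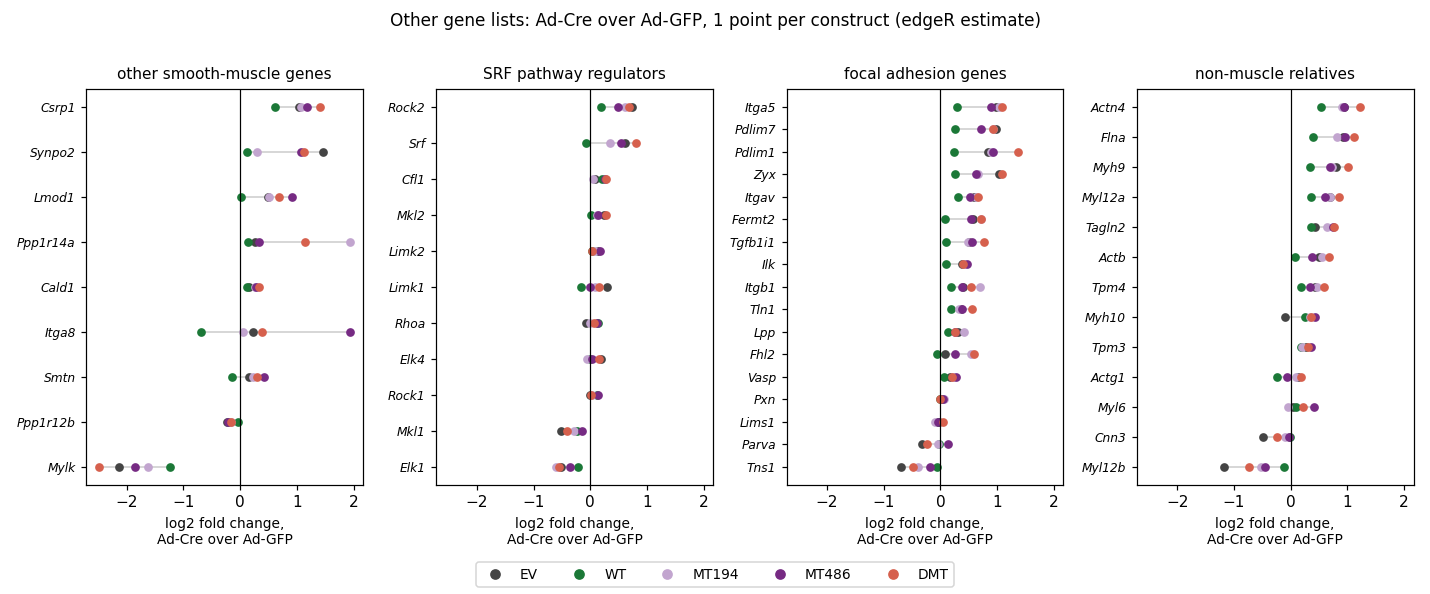
Log2 fold change of Ad-Cre over Ad-GFP for the tested genes of 4 further lists, with 1 point per construct and genes ordered by their median. Csrp1, Actn4 and Itga5 lie above 0 in all 5 constructs, Mylk lies below it in all 5 (medians 1.08, 0.94, 0.99 and -1.86).

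Markers of other cell types moved beside the 10 genes, and their part in these results was not tested. Of 12 fibroblast markers, 11 were tested, with Fap and S100a4 called lower in EV (11.8% of all genes were called) and a median of -0.53. With the block 6 were called lower and 1 higher (25.4% of all genes). The list summed to 17406 ± 3652 CPM (SD, n = 2) in EV with Ad-GFP and 13734 ± 3266 CPM with Ad-Cre. The 5 pericyte markers summed to 131 ± 42.6 and 85.8 ± 21.8 CPM, led by Notch3 or Cspg4, of the 3 tested none was called in EV (2 lower with the block), and Kcnj8 and Abcc9 were at or near 0. Skeletal and cardiac markers went from 2.08 ± 0.85 to 5.65 ± 0.60 CPM, mostly Tnnc1, which was called (1.43 ± 0.34, adjusted p = 0.0141). The epithelial (0.611 and 0.690 CPM) and endothelial (0.660 and 1.13 CPM) lists were low in EV. The leukocyte list was at 5.41 and 8.26 CPM there. Over all constructs it ran from 4.03 to 7.46 CPM with Ad-GFP and from 3.94 to 10.03 CPM with Ad-Cre. None of the epithelial, endothelial and leukocyte genes was called in EV, except 1 leukocyte gene higher with the block.

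Clones of one construct differed far more than replicate populations. The pooled standard deviation of log2 CPM within groups was 3.03 for Acta2, 2.62 for Actg2, 1.93 for Myl9, 1.58 for Cnn1 and 1.57 for Tagln, against a median of 0.345 over all 13223 genes. Acta2 stood at the 99.9th percentile of all genes in this spread, and Actg2 at the 99.7th. The remaining 5 genes lay between 0.47 for Tpm1 and 0.57 for Vcl. In the populations the median of the 10 genes was 0.246, beside 0.278 for all genes.

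Libraries that stood apart were looked for before clones were compared. The WT clones 1 and 3 had Nelfb at 10.3 and 15.5 CPM, against 109 CPM in WT clone 2 and 56.3 to 247 CPM in the other 12, which goes against their label, and they are called the clones labelled WT. MT486 clones 1 and 2 were much closer to each other than any other pair of one group, at a chi-square of 5.06 per gene where the next pair had 32.4 and sampling noise gives about 1. They are not the same library by this measure, and whether they are independent clones was not tested.

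Acta2 ran from 3.40 CPM in WT(N48) clone 3 to 3852 CPM in Δ-C60 clone 3. The WT(N48) clones held 1435, 768 and 3.40 CPM and the Δ-C60 clones 372, 46.6 and 3852 CPM. Clones labelled WT held 51.7, 8.88 and 35.7 CPM, MT194 clones 6.70, 7.31 and 79.9 CPM, and MT486 clones 163, 145 and 6.17 CPM. High and low clones thus occurred under one construct, and every group overlapped with every other.

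The clone highest in Actg2 was not the one highest in Acta2. Actg2 was at 107 and 61.1 CPM in WT(N48) clones 1 and 2 and at 0.315 CPM in clone 3, and in the Δ-C60 clones at 1.73, 1.80 and 34.4 CPM. The Δ-C60 clone 1, with 372 CPM of Acta2, therefore held only 1.73 CPM of Actg2. MT486 clones had 12.95, 11.8 and 0.414 CPM, MT194 clones 3.82, 1.28 and 5.41 CPM and clones labelled WT 2.42, 0.871 and 1.27 CPM.

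Cnn1 reached 152, 8.65 and 217 CPM in the Δ-C60 clones and 53.2, 35.9 and 3.36 CPM in the WT(N48) clones, and stayed between 0.832 and 6.90 CPM in the 9 other clones. Tagln was at 207, 39.7 and 1110 CPM in Δ-C60, 683, 258 and 49.99 CPM in WT(N48), and 8.27 to 104 CPM elsewhere. Myl9 held 394, 15.02 and 901 CPM in Δ-C60, 91.6, 83.7 and 22.2 CPM in WT(N48) and 2.58 to 37.6 CPM in the others. The clones Δ-C60 1 and 3 were high in all of these, and Δ-C60 clone 2 was not.

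The abundant genes followed in smaller steps. Tpm1 was at 3656, 1803 and 6389 CPM in Δ-C60 and 1217 to 2171 CPM in the other 12 clones. Actn1 stood at 725, 651 and 2247 CPM in Δ-C60, above all other clones (323 to 639 CPM). Vcl was at 1746, 418 and 1619 CPM in Δ-C60 and 419 to 837 CPM elsewhere, so that Δ-C60 clone 2 was the lowest of all 15. Cnn2 ranged from 173 CPM in WT clone 2 to 1031 CPM, and Tpm2 from 130 to 600 CPM, both highest in Δ-C60 clone 3.

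**Figure D5:**
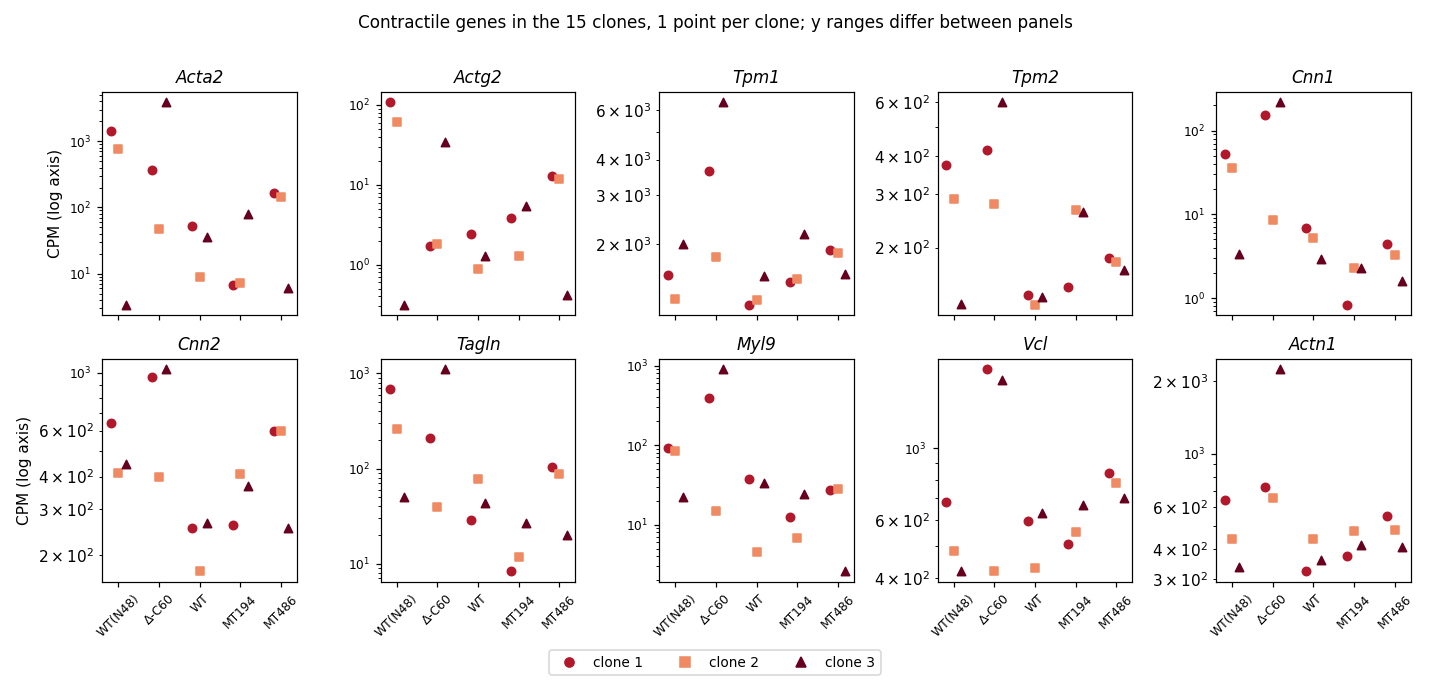
CPM (log axis) of the 10 genes in the 15 clones by construct, with 1 symbol per clone. Acta2 spans 3.40 to 3852 CPM, with Δ-C60 clones 1 and 3 and WT(N48) clones 1 and 2 highest.

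Tests between clones with the same vector gave no calls among the 10 genes by edgeR. For Δ-C60 against WT(N48), 9 of 10 estimates were above 0, with 1.36 ± 0.40 for Actn1 (adjusted p = 0.254) and 1.30 ± 0.35 for Tpm1 (adjusted p = 0.22). In that comparison 0% of all genes were called, 4 of the 10 had an unadjusted p under 0.05 (all genes 11.6%), and DESeq2 called Actn1 and Tpm1 (1.7% of all genes). Without Δ-C60 clone 2, edgeR called Tpm1 (1.64, adjusted p = 0.0178), Vcl (1.67, adjusted p = 0.00872) and Actn1 (1.65, adjusted p = 0.0436), where 2.33% of all genes were called. MT194 against WT (2.9% of all genes called) and MT486 against MT194 (0.348%) gave no call among the 10, 0 at an unadjusted p under 0.05 (21.1% and 18.7% of all genes) and none by DESeq2 (8.29% and 5.78%). MT486 against WT gave none either (0% of all genes), with 1, Cnn2, at an unadjusted p under 0.05 (1.07 ± 0.38, adjusted p = 0.381, all genes 8.89%) and none by DESeq2 (1.2%).

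Leaving out either of the MT486 clones 1 and 2 gave no call either, in MT486 against WT or against MT194. In these fits 0% of all genes were called, so nothing is read from the absence of calls. Leaving out the WT clones 1 and 3 left 1 clone labelled WT, which was assumed to vary like the others, so no count of calls is read there. The estimate for Acta2 in MT194 against WT then went from -0.04 to 1.80, so that no direction is read from it. Standard errors in Δ-C60 against WT(N48) ran from 0.35 for Tpm2 to 1.71 for Acta2.

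With the comparators exchanged, so that the vector differed too, Δ-C60 against clones labelled WT gave 5 calls by edgeR, all higher (8.33% of all genes called in either direction), which were Cnn1 (4.65 ± 1.11, adjusted p = 0.0273), Cnn2 (1.79 ± 0.39, adjusted p = 0.0204), Tpm1 (1.56 ± 0.36, adjusted p = 0.0233), Tpm2 (1.67 ± 0.35, adjusted p = 0.0183) and Actn1 (1.69 ± 0.40, adjusted p = 0.0266). DESeq2 called 9, all but Actg2 (14.2% of all genes), and 9 had an unadjusted p under 0.05 (27.1%). Without Δ-C60 clone 3 the count was 2 (Cnn2 and Tpm2, 5.95% of all genes), and without clone 2 it was 8 (13.3%). Leaving out any 1 of the 3 clones labelled WT, clone 2 included, gave 0 (0.742 to 2.69% of all genes), as did leaving out clones 1 and 3 together (0.0214%) and fitting the compared groups alone (0.627%). MT194 against WT(N48) gave 1 call, Cnn1, with a log2 fold change of -4.09 ± 1.10 (adjusted p = 0.0487, 5.82% of all genes), while DESeq2 called Acta2, Cnn1 and Tagln (12.8%), and 4 had an unadjusted p under 0.05 (25.8%). MT486 against WT(N48) gave none (0.287% of all genes), with 1 gene at an unadjusted p under 0.05 (15.1%) and Cnn1 called by DESeq2 (4.46%). WT(N48) against clones labelled WT, a comparison of 2 groups with WT in their labels and different vectors, gave none of the 10 (2.1% of all genes), with 6 at an unadjusted p under 0.05 (21%) and Actg2 and Cnn2 called by DESeq2 (8.42%). The Cnn1 call in MT194 against WT(N48) was lost without the filter on low counts, with the compared groups alone, and without any 1 of MT194 clones 1, 2 and 3 or WT(N48) clones 1 and 2. Without WT(N48) clone 3, edgeR called Cnn1 and Tagln there (10.3% of all genes), and Tpm2 in WT(N48) against WT (4.5%). Vector and construct cannot be told apart in these comparisons.

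Among clones, pair correlations of the 10 genes ran from 0.19 to 0.89 over 15 libraries (median 0.72). All clones are Ad-Cre cells, so these are not set against the correlations over the populations, which hold the step from Ad-GFP to Ad-Cre. Actg2 had the lowest median correlation with the others (0.54) and Acta2 the highest (0.78). Of the defining smooth-muscle markers, Myocd had at most 1 read in any clone, while Myh11 was at 2.62 CPM in Δ-C60 clone 3 and at most 0.412 CPM in the other 14. Lmod1 was at 106 CPM in that clone, at 46.8 and 25.1 CPM in WT(N48) clones 1 and 2, at 18.3 CPM in Δ-C60 clone 1 and at 0.507 to 6.06 CPM elsewhere, so that it was high in the clones with high Acta2. Mylk was at 2.18 to 13.7 CPM in all 15 clones and did not follow them. Srf was highest in Δ-C60 clones 3 (340 CPM) and 1 (274 CPM), against 91.9 to 197 CPM in the rest.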

How the data were processed

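The deposited values are raw counts of reads per gene, which the authors made from 50 bp single reads of poly(A) libraries, aligned to mm10 with Bowtie2, kept at a mapping quality of at least 30 and counted with HTSeq. Tool versions, the annotation and the strand setting are not given in the sources used here, so overlapping and antisense genes may share reads. The 10 genes and the other lists were chosen with earlier results of these data known. edgeR 4.0.16 in R 4.3.3 (TMM, filterByExpr, quasi-likelihood test, robust) was fitted with 1 mean per group to 20 populations and, separately, to 15 clones, and p-values were adjusted over all tested genes. DESeq2 1.42.0 was an alternative. Errors beside log2 fold changes are standard errors of the edgeR fit, with a spread shared over the groups and without the replicate block unless stated. CPM per kb used GENCODE exon lengths on GRCm38, the same assembly as mm10. Alternatives were the replicate block, DESeq2 size factors, no filter on low counts, the compared groups alone, a log2 threshold of 1 and each library left out. Genes named beside the 10 were a set of relatives and regulators, the 2 highest and 2 lowest of each list by median Ad-Cre effect, and the 5 outside the lists most correlated with the 10 genes or with Acta2. Zyx, Myh9 and other called genes were named after their values were seen. Reads in no gene (11.7 to 21.3% in populations, 9.14 to 12% in clones) were left out.

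Same-numbered populations deviated together in 45 of 45 pairs of groups (correlations 0.42 to 0.73), so their numbers were taken to pair them, while in the clones 3 of 30 exceeded 0.1. A figure legend of the study gives 2 independent experiments for the EV, WT, MT194 and MT486 populations and does not name DMT. The p-values over clones measure the spread between clones. With 2 against 2, a permutation test could not reach a p under 0.05. Steps were tested on simulated data.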

Additional observations from a re-analysis of the deposited data

Results flagged for a closer look

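The response of Nelfb to Ad-Cre differed between constructs by the interaction test of edgeR, by a log2 difference of 2.27 for WT minus EV (adjusted p = 0.00574), 3.38 for MT194 minus EV, 3.18 for MT486 minus EV, 4.15 for DMT minus EV and 1.88 for DMT minus WT (adjusted p = 0.0259), with reads of the transgene included. S100a4, a fibroblast marker, differed by 1.62 in WT minus EV (adjusted p = 0.0485), from 52.2 to 18.9 CPM in EV and from 50.8 to 56.7 CPM in WT. Parva, a focal adhesion gene, was higher with Ad-Cre than with Ad-GFP in both MT486 replicates and lower in both DMT replicates, the smallest of these 4 log2 ratios within a replicate being 0.04, and that difference was not tested.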

How the results depend on the processing

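No value that had been called reversed its direction under any alternative. For WT against EV with Ad-Cre, 2 of the 10 genes were called (7.37% of all genes). The replicate block called 6 (23%), the compared groups alone 1 (2.8%) and a log2 threshold of 1 also 1 (4.05%). The block called 1 of the 10 in MT194 against EV (6.22% of all genes) and 2 in MT486 against EV (8.95%) with Ad-Cre. In the differences of the Ad-Cre response, DESeq2 called 1 (2.88% of all genes) and the block 2 (13.4%) for WT minus EV, and the block called 1 (2.68%) for MT486 minus EV. Against WT, the block called 1 for MT194 (2.56% of all genes), 2 for MT486 (0.232%) and 5 for DMT (7.19%). DESeq2 called 1 for MT486 (0.0206%) and 4 for DMT (1.41%). All of these population comparisons use values by which the genes were chosen, so the calls are descriptive only. For Δ-C60 against WT(N48), DESeq2 called 2 (1.7% of all genes), the WT clones as comparator gave 5 (8.33%), and leaving out single clones gave 0 to 3 (0 to 2.33%). MT194 against WT(N48) in place of WT gave 1 (5.82%). With these exchanged comparators, the 5 calls went to 0 without any 1 WT clone or with the compared groups alone and to 4 without the filter (4%), and the 1 call went to 0 in 5 of 6 omissions of a clone, without the filter and with the compared groups alone. The block changed no other count of calls among the 10 genes in the populations. In the clones, whose numbers do not pair them, it gave 0 of the 10 in the same-vector comparisons, as without it, and with the exchanged comparators 4 in place of 5 (Actn1 lost, 5.43%) and 0 in place of 1 (Cnn1 lost, 2.99%). A log2 fold change over 0.5 with Ad-Cre was reached by 8 to 10 of the 10 genes in EV, 5 to 8 in WT and 8 to 10 in MT486 when single replicates were left out, and by all 10 in MT194 and DMT. Over all genes, WT against EV with Ad-Cre gave 1018 calls, 3175 with the block and 1474 with DESeq2. The causes were not tested. Depth limits Actg2 and Cnn1 with Ad-GFP, and Actg2 also in some clones, with 9 reads in MT486 clone 3 and in WT(N48) clone 3.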

Other observations

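Myod1, the master regulator of skeletal muscle, had no read in any population but 268 reads (13.1 CPM) in MT194 clone 1 and 20 reads (1.00 CPM) in MT194 clone 3, and at most 2 reads in the other 13 clones. MT194 clone 1 was the lowest of all 15 clones in Cnn1 (0.832 CPM) and Tagln (8.27 CPM). Synpo2 was at 40.7 CPM in Δ-C60 clone 3, the clone with the highest Acta2, against 0.507 CPM in WT clone 3, its lowest.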
